A study of Mus musculus with 9 samples.

Results

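The 7 haematopoietic growth factor receptor genes Kit, Flt3, Epor, Csf1r, Csf2ra, Csf2rb and Csf3r were followed in LSK cells, the marrow fraction without lineage markers and with Sca-1 and c-Kit that holds the stem cells and earliest progenitors. They were taken by symbol from the array's probe annotation, among 30142 named genes. A probeset with exactly 1 symbol was found for 6 of the 7, and each of the 6 had 1 such probeset. Csf2rb was not matched and was not analysed here. Affymetrix whole-transcript arrays held amplified RNA, from 5 ng of total RNA, of 1 mouse each. The 4 knockout (KO) mice were Abi1(-/-);Tg (Mx1-cre(+)) and the 5 wild-type (WT) mice were Abi1(fl/fl);Tg (Mx1-cre(-)). All mice received 3 injections of poly(I:C) at an age of 8 to 9 weeks, which switches on the interferon-driven Mx1 promoter and so Cre where it is carried, and the marrow was taken at 12 to 14 weeks. Cre was absent from the WT mice, whose Abi1 alleles were floxed and intact, so an effect of Cre itself and that of Abi1 loss cannot be told apart. The Mx1 promoter is active in many cell types, so the deletion need not be limited to LSK cells.

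These receptors let blood progenitors survive, divide and choose a lineage in response to secreted factors. KIT, FLT3 and CSF1R are receptor tyrosine kinases for stem cell factor, FLT3 ligand and M-CSF. EPOR and CSF3R pair with themselves, and the GM-CSF receptor joins the alpha chain made by Csf2ra to a beta chain. These cytokine receptors have no kinase of their own and signal through JAK2 and STAT5 or STAT3. In early marrow cells Kit is broadly expressed, Flt3 marks multipotent progenitors that lean to lymphoid and myeloid fates, Epor belongs to the erythroid branch, and Csf1r, Csf2ra and Csf3r belong to the myeloid branches.

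Promoter sequences are shown for 4 of the genes because they span the ways the signals varied from mouse to mouse: Epor varied most, Csf2ra least, and Flt3 and Csf3r together. Windows were taken for 5 of the 6 measured genes. The windows are the 250 bases before the transcription start, read 5′ to 3′ on the gene's strand, from RefSeq on GRCm38.p6. They lie at chr9:21963577-21963826 (minus strand) for Epor, chr4:126024409-126024658 (plus strand) for Csf3r, chr19:61228419-61228668 (minus strand) for Csf2ra and chr5:147400490-147400739 (minus strand) for Flt3. Capitals mark the GATA word (AGATAA or TGATAA, either strand) and the PU.1-like word GAGGAA (either strand), the letters bound by regulators of erythroid and of myeloid genes.
Epor: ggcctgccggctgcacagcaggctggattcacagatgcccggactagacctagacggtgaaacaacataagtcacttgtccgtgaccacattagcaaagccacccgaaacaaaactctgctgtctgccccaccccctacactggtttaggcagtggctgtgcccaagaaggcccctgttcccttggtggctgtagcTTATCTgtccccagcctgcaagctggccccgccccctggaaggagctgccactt
Csf3r: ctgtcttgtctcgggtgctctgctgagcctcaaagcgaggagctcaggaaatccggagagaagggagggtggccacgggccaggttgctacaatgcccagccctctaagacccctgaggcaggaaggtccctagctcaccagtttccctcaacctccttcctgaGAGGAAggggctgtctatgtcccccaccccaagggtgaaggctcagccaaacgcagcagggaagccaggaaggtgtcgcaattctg
Csf2ra: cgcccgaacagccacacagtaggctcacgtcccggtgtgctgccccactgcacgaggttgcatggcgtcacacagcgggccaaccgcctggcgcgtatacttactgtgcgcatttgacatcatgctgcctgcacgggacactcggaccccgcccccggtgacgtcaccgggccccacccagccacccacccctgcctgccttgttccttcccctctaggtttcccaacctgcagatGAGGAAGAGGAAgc
Flt3: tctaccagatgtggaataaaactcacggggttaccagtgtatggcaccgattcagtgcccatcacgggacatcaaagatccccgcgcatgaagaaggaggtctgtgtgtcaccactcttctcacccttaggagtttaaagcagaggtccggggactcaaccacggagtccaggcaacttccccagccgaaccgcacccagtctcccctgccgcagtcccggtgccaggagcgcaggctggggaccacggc
The GATA word occurs once among them, as TTATCT 54 bases before the Epor start. GAGGAA lies 86 bases before the Csf3r start, and 14 and 8 bases before the Csf2ra start, where the words adjoin. Kit, whose promoter is not printed, has GAGGAA 223 and 227 bases before its alternative starts, which is the same stretch of DNA. The Flt3 window holds neither word. Of all 32851 RefSeq promoter windows of this length, 16.6% hold the GATA word and 23.3% hold GAGGAA. A match here describes letters and is not evidence of binding.

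The deleted gene Abi1 had log2 signals of 5.59 to 6.11 in KO and 11.49 to 11.65 in WT, so every array matched its label. KO replicate 1 and WT replicate 5 stood apart from the rest. Across genes above background, they correlated with the other arrays at medians of 0.973 and 0.979, and the remaining 7 arrays at 0.987 to 0.992. Background was set at the percentile 95 of 1526 genes of olfactory and vomeronasal receptors, and was 5.61 in KO replicate 1 and 5.29 to 5.35 in the others. As a measure of array quality, a randomly drawn pos control outshone a randomly drawn neg control with a probability of 0.775 on the KO 1 array, 0.756 on the WT 5 array and 0.803 to 0.827 on the rest. The erythroid carbonic anhydrase gene Car1 had a signal of 6.38 in WT replicate 5 and 15.40 to 16.99 elsewhere. Of 9 measured stem cell markers 8 lay above background. So did 10 of 10 granulocyte-monocyte progenitor, 9 of 9 monocyte and macrophage, and 9 of 9 mast cell and basophil markers. The counts were 7 of 8 for megakaryocyte, 6 of 7 for erythroid and 6 of 10 for mature neutrophil markers. They were 5 of 9 for B cells, 4 of 7 for dendritic cells, 4 of 8 for endothelial and stromal cells and 4 of 10 for T and NK cells. Ly6a, which belongs to the Sca-1 gate, was not matched to a probeset of its own and was not analysed here. With bulk RNA, fewer cells of a type and less RNA per cell cannot be told apart. The number of arrays limits the precision of every value.

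All 6 measured receptor genes had a mean signal above background, and their places by signal hardly changed between mice. Kit was 9.19 above background on the log2 scale (mean of 9 arrays), Flt3 6.07, Csf3r 5.43, Epor 3.52, Csf2ra 1.81 and Csf1r 1.56. Probesets differ in how strongly they respond, so these distances place each gene against background and are not ratios of transcripts. Among all named genes in an array, Kit lay at percentile 97.0 to 98.2, Flt3 at 89.2 to 95.6 and Csf3r at 86.7 to 93.3. Epor ranged over percentiles 66.2 to 83.7, Csf1r over 58.8 to 68.7 and Csf2ra over 64.3 to 65.5. Kit, Flt3, Csf3r and Epor held places 1 to 4 of the 6 in every array. Csf2ra and Csf1r shared the last places, with Csf1r above Csf2ra in KO replicate 2 and WT replicate 3 and below it in the other 7 arrays.

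The mice differed most in Epor and least in Csf2ra. Epor had a pooled within-group SD of 0.93, larger than that of 98.5% of the 4186 genes above background with a mean within 1 log2 unit of its own. For Flt3 the SD was 0.63 (94.1% of 2151 genes of like signal had a smaller one), for Csf3r 0.52 (89.7% of 2756) and for Csf1r 0.41 (89.8% of 5093). Kit lay nearer the middle, with an SD of 0.27 (63.0% of 622). Csf2ra had an SD of 0.053, smaller than that of most genes of like signal (4.96% of 4938 had a smaller one). It held the value 7.14 in 4 of the 9 arrays, and equal deposited values in different mice lower the measured spread.

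**Figure D1:**
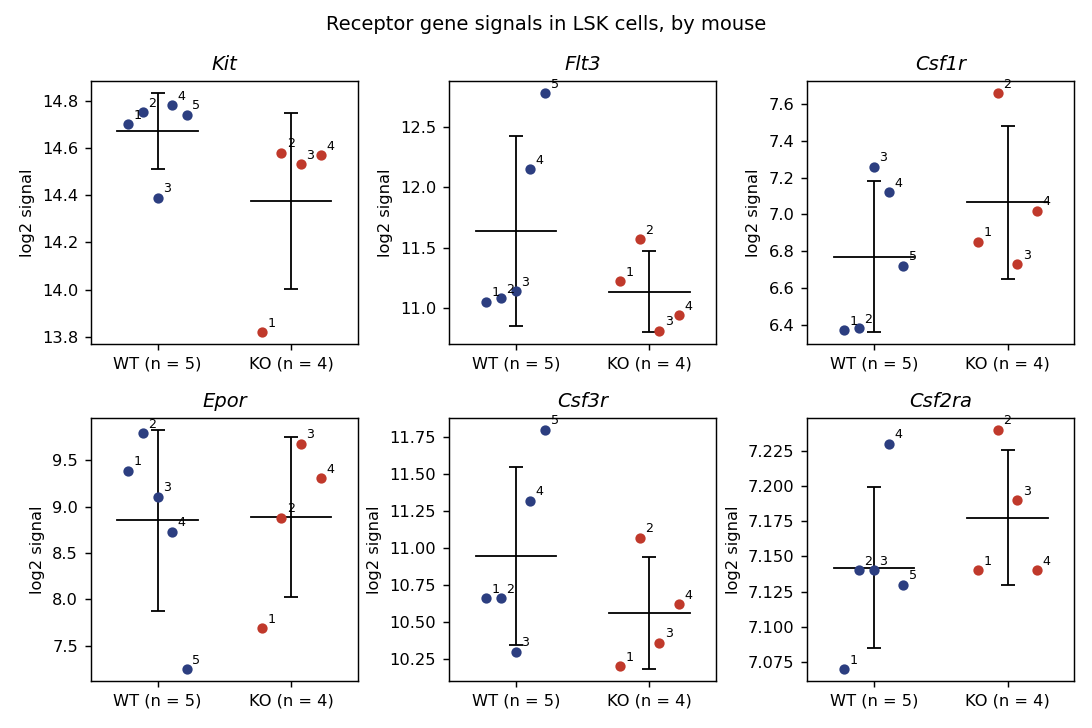
Log2 signal of each measured receptor gene in WT (blue, 5 mice) and KO (red, 4 mice), with replicate numbers, group means (horizontal lines) and SD (error bars); each panel has its own axis, which does not start at 0. The groups overlap for all 6 genes, and WT replicate 5 is the highest array for Flt3 and Csf3r and the lowest for Epor.

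No measured receptor gene differed between KO and WT past the threshold. In limma, 0 of the 6 passed an adjusted p of 0.05 and 0 had an unadjusted p under 0.05. Over all 30142 genes, 1 gene passed, Abi1, which is 0.00332%, and 5.01% had an unadjusted p under 0.05. The groups overlapped for all 6 receptors, and 0.856% of all genes had groups without overlap. Kit, Flt3 and Csf3r had lower means in KO, while Csf1r, Csf2ra and Epor had higher ones, beside a median difference of 0.033 over all genes.

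Kit encodes c-Kit, which also served as a gate of the sort. In KO replicates 1 to 4 it had log2 signals of 13.82, 14.58, 14.53 and 14.57, and in WT replicates 1 to 5 of 14.70, 14.75, 14.39, 14.78 and 14.74. Replicates 2 to 4 of KO lay close together, below 4 of the 5 WT arrays and above WT replicate 3, and KO replicate 1 was the lowest of all. The KO mean was 14.38 ± 0.37 (SD, n = 4), and the WT mean was 14.67 ± 0.16 (SD, n = 5). They differed by -0.30 (95% interval -0.68 to 0.088, limma adjusted p = 0.786, exact two-sided permutation p = 0.0952). Without KO replicate 1, the array with the highest background, it was -0.11. Across the 9 arrays, Kit and the background level had a Pearson r of -0.95 (exact permutation p = 0.00190, p = 0.0288 after adjustment over 18 relations of receptors with array measures) and a Spearman rho of -0.75 (exact permutation p = 0.0255, adjusted p = 0.115). Without KO replicate 1 and WT replicate 3, r was -0.57.

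Flt3, the FLT3 ligand receptor, had signals of 11.22, 11.57, 10.81 and 10.94 in KO replicates 1 to 4 and of 11.05, 11.08, 11.14, 12.15 and 12.78 in WT replicates 1 to 5. WT replicates 4 and 5 were the highest arrays, and the other 3 WT arrays lay within the KO range. The means were 11.13 ± 0.34 (SD, n = 4) and 11.64 ± 0.79 (SD, n = 5), a difference of -0.51 (95% interval -1.40 to 0.39, limma adjusted p = 0.786, exact two-sided permutation p = 0.317). Without WT replicate 5 the difference was -0.22. Without WT replicates 4 and 5, a choice made after seeing the data, it was 0.045.

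Csf1r, the M-CSF receptor of monocytes and macrophages, had signals of 6.85, 7.66, 6.73 and 7.02 in KO replicates 1 to 4 and of 6.37, 6.38, 7.26, 7.12 and 6.72 in WT replicates 1 to 5. KO replicate 2 was the highest array, and WT replicates 1 and 2 were the lowest. The difference of the means was 0.30 (95% interval -0.29 to 0.88, limma adjusted p = 0.786, exact two-sided permutation p = 0.302), with a WT mean of 6.77 ± 0.41 (SD, n = 5) and a KO mean of 7.07 ± 0.41 (SD, n = 4). Without KO replicate 2 it was 0.097. Monocyte and macrophage markers moved beside it in part. Of 10 listed markers 9 were measured, all 9 above background, and their mean deviation from the 9-array mean ran from -0.24 to 0.34 in KO and from -0.28 to 0.21 in WT. It was highest in KO replicate 2, as was Csf1r. The monocyte surface gene Ly6c2 had a signal of 15.26 there and 11.64 to 14.59 in the other arrays. Lyz2, at 12.31, and Itgam, at 7.96, were also highest there, and the remaining markers of the list were not. The macrophage complement genes C1qa, at 5.29, and C1qb, at 5.53, were not high in KO replicate 2, with 5.17 to 5.70 and 5.32 to 6.52 in the others. Both lay close to the background of that array, 5.33. Of the 9 markers, 6 had a higher KO mean and 3 a lower one, near the 64.2% of all named genes with a higher KO mean. The part of such cells in the Csf1r signal was not tested.

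Epor, the erythropoietin receptor, had signals of 7.69, 8.88, 9.68 and 9.31 in KO replicates 1 to 4 and of 9.39, 9.79, 9.11, 8.73 and 7.25 in WT replicates 1 to 5. The lowest arrays, WT replicate 5 and KO replicate 1, came from different groups and were the arrays that stood apart, and the full range of 2.54 is a 5.82-fold span if the values are log2. The means were nearly equal, 8.89 ± 0.86 (SD, n = 4) for KO and 8.85 ± 0.98 (SD, n = 5) for WT. The small difference of 0.036 (95% interval -1.27 to 1.34, limma adjusted p = 0.987, exact two-sided permutation p = 0.929) leaves room for changes of more than 1 log2 unit either way. It was 0.44 without KO replicate 1, -0.37 without WT replicate 5, and 0.035 without both.

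Erythroid regulators were low in the same WT array, as were the means of megakaryocyte markers (deviation -1.54) and of mast cell and basophil markers (-1.06). The erythroid transcription factor gene Klf1 was 5.63 in WT replicate 5 and 7.60 to 10.04 in the other arrays. Gata1, the master regulator of red cell genes, was 5.89 there and 6.34 to 6.84 elsewhere. Of 10 listed erythroid markers 7 were measured and 6 were above background, with a mean deviation of -2.42 in WT replicate 5, -0.18 to 0.75 in the other WT arrays and -0.23 to 0.59 in KO. The list did not move as one. In WT replicate 5 Car1 deviated by -8.89, the erythroid surface gene Ermap by -4.43 and Klf1 by -2.92, while Alas2, Slc4a1 and Tfrc lay between -0.03 and 0.02. Over the arrays Slc4a1, at 4.73 to 4.88, lay below background and Alas2, at 5.36 to 5.51, close to it, so neither could show a clear fall. Without Car1 the mean of the other 6 was -1.34 in WT replicate 5, -0.29 in KO replicate 1 and -0.28 in WT replicate 4. Epor was 1.18 below its mean in KO replicate 1 and 0.14 below in WT replicate 4. In KO replicate 1 Ermap deviated by -1.20 and Klf1 by -0.79, while Gata1, Car1, Alas2, Slc4a1 and Tfrc lay between -0.01 and 0.13. The part of erythroid cells in the Epor signal was not tested.

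Epor also went with some of the array measures. Each of 6 receptors was set against 3 such measures, which gave 18 relations over the 9 arrays. With the probability that a pos control outshone a neg control, Epor had a Pearson r of 0.92 (exact permutation p = 0.00320, adjusted p = 0.0288) and a Spearman rho of 0.77 (exact permutation p = 0.0214, adjusted p = 0.115). With the median correlation to the other arrays, r was 0.89 (exact permutation p = 0.00736, adjusted p = 0.0442) and rho was 0.77 (exact permutation p = 0.0189, adjusted p = 0.115). Without KO replicate 1 and WT replicate 5, r was 0.37 and 0.66, so both relations rest on those arrays. Between Epor and the background level, r was -0.45 (exact permutation p = 0.222) and rho was -0.12 (exact permutation p = 0.776). For Flt3 and the median correlation, rho was -0.84 (exact permutation p = 0.00706, adjusted p = 0.115) and r was -0.48. Without the same arrays, that r was -0.94, and for Csf3r it was -0.89, against -0.18 over all 9. The median correlation is computed from the genes themselves.

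Csf3r, the G-CSF receptor of the neutrophil branch, had signals of 10.20, 11.07, 10.36 and 10.62 in KO replicates 1 to 4 and of 10.66, 10.66, 10.30, 11.32 and 11.80 in WT replicates 1 to 5. The highest arrays were again WT replicates 5 and 4, and the lowest was KO replicate 1. The KO mean was 10.56 ± 0.38 (SD, n = 4) and the WT mean 10.95 ± 0.60 (SD, n = 5), a difference of -0.39 (95% interval -1.12 to 0.34, limma adjusted p = 0.786, exact two-sided permutation p = 0.317). It was -0.17 without WT replicate 5 and 0.022 without WT replicates 4 and 5.

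Other genes of the neutrophil branch did not share the lower KO mean of Csf3r. For all 10 granulocyte-monocyte progenitor markers the KO mean was the higher one, beside 64.2% of all named genes, and the median difference of the list was 0.55. Of the 10 markers, 0 passed the limma adjusted p of 0.05 and 5 had an unadjusted p under 0.05, beside 3.82% of all genes higher at that p. The Fc receptor gene Fcgr3 differed by 0.63 (SE 0.17), the transcription factor gene Cebpe by 0.53 (SE 0.15) and the haptoglobin gene Hp by 0.90 (SE 0.34), each with a limma adjusted p of 0.786. All 10 mature neutrophil markers, 6 of them above background, likewise had higher KO means, where 0 passed in limma and 2 had an unadjusted p under 0.05. Their mean deviation was 1.65 on the KO 1 array, 1.47 on KO 2, -0.53 on KO 3 and -0.19 on KO 4, and it ran from -0.91 to 0.22 over the WT arrays. Csf3r was lowest in KO replicate 1, where the neutrophil markers were highest. In KO replicate 2, where these markers were nearly as high, Csf3r was 11.07, the highest of the KO arrays. The part of neutrophils in the Csf3r signal was not tested.

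Csf2ra, the alpha chain of the GM-CSF receptor, had signals of 7.14, 7.24, 7.19 and 7.14 in KO replicates 1 to 4 and of 7.07, 7.14, 7.14, 7.23 and 7.13 in WT replicates 1 to 5. All 9 arrays lay within 0.17 log2 units, a 1.13-fold span. Its mean was 7.18 ± 0.048 (SD, n = 4) for KO and 7.14 ± 0.057 (SD, n = 5) for WT. Their difference of 0.036 had a 95% interval from -0.060 to 0.13, the narrowest of the 6 (limma adjusted p = 0.803, exact two-sided permutation p = 0.365). It was -0.012 with median-centred arrays.

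**Figure D2:**
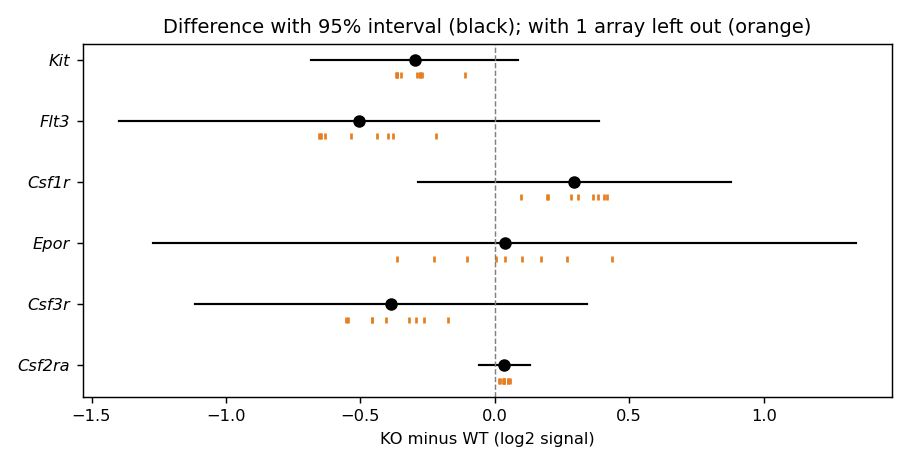
KO minus WT difference in log2 signal for each receptor gene (black points) with its 95% interval from limma (black lines); orange ticks below each line are the difference with 1 of the 9 arrays left out. Every interval spans 0, from the narrow one of Csf2ra (-0.060 to 0.13) to the wide one of Epor (-1.27 to 1.34).

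Across the 9 mice, Flt3 and Csf3r rose and fell together, and the Flt3 and Epor signals had a negative correlation that did not pass the adjusted threshold. Of the 15 pairs of receptor genes, 1 passed the adjusted threshold. Flt3 and Csf3r had a Pearson r of 0.91 (exact permutation p = 0.00178, adjusted p = 0.0267 over 15 pairs) and a Spearman rho of 0.58 (exact permutation p = 0.110, adjusted p = 0.413). With WT replicates 4 and 5 left out, the arrays farthest from the Flt3 median, r was 0.54, so the relation rests on those mice. The adjusted p was 0.229 without WT replicate 5, 0.139 without WT replicate 4, 0.196 without KO replicate 2 and 0.00856 without KO replicate 1.

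Flt3 and Epor had a Pearson r of -0.74 (exact permutation p = 0.0299, adjusted p = 0.154) and a Spearman rho of -0.83 (exact permutation p = 0.00827, adjusted p = 0.0620). Without WT replicates 4 and 5 r was -0.50. Without KO replicate 1, which was low in Epor and not high in Flt3, r was -0.93 (exact permutation p = 0.000645, adjusted p = 0.00856). Without WT replicate 5 r was -0.43 (adjusted p = 0.506). Kit and Csf3r had an r of 0.63 (exact permutation p = 0.0730, adjusted p = 0.274) and a rho of 0.87 (exact permutation p = 0.00368, adjusted p = 0.0552), and r was 0.60 without KO replicate 1 and WT replicate 4. Csf1r and Csf2ra had an r of 0.71 (exact permutation p = 0.0309, adjusted p = 0.154) and a rho of 0.72 (exact permutation p = 0.0304, adjusted p = 0.152), and r was 0.26 without KO replicate 2 and WT replicate 1. Epor and Csf3r had an r of -0.47 (exact permutation p = 0.186, adjusted p = 0.558) and a rho of -0.27 (exact permutation p = 0.483, adjusted p = 0.804). Without KO replicate 1 that r was -0.87 (exact permutation p = 0.00635, adjusted p = 0.0318), without WT replicate 5 it was 0.070 (adjusted p = 0.871), and without both it was -0.68. The other 10 pairs had adjusted p-values of 0.756 or more for r.

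**Figure D3:**
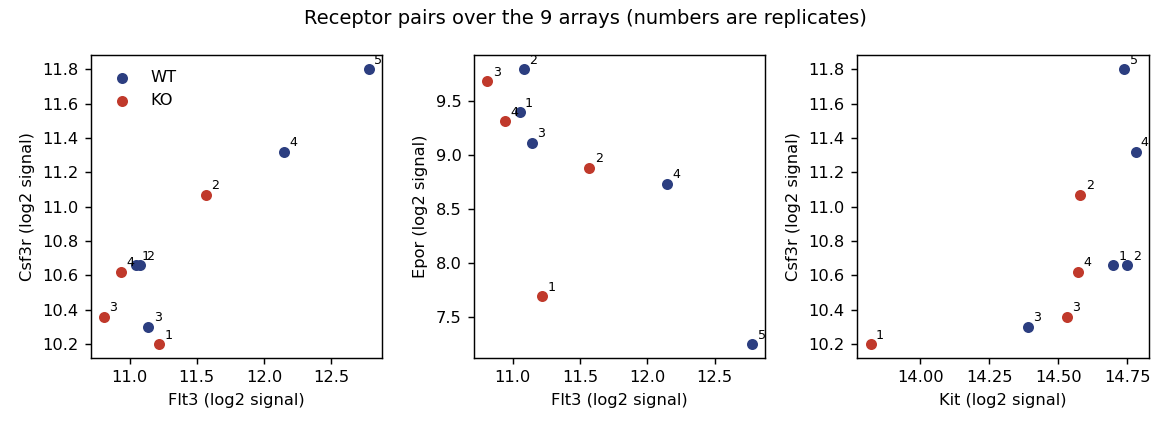
Log2 signals of Flt3 against Csf3r, Flt3 against Epor, and Kit against Csf3r, 1 point per mouse with its replicate number (WT blue, KO red). WT replicates 4 and 5 lie at the upper right for Flt3 and Csf3r, and KO replicate 1 lies at the lower left for Kit and Csf3r.

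The plot of deviations sets the receptors side by side for each array. WT replicate 5 was 1.36 above the mean for Flt3 and 1.02 above for Csf3r, 1.62 below for Epor and 0.18 below for Csf1r. WT replicate 4 had the same signs at smaller size for Flt3, Csf3r and Epor. KO replicate 1 was below the mean for all 6 genes, by 1.18 for Epor, 0.72 for Kit and 0.58 for Csf3r and by at most 0.20 for the others. KO replicate 3 was the lowest array for Flt3 and the second highest for Epor.

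**Figure D4:**
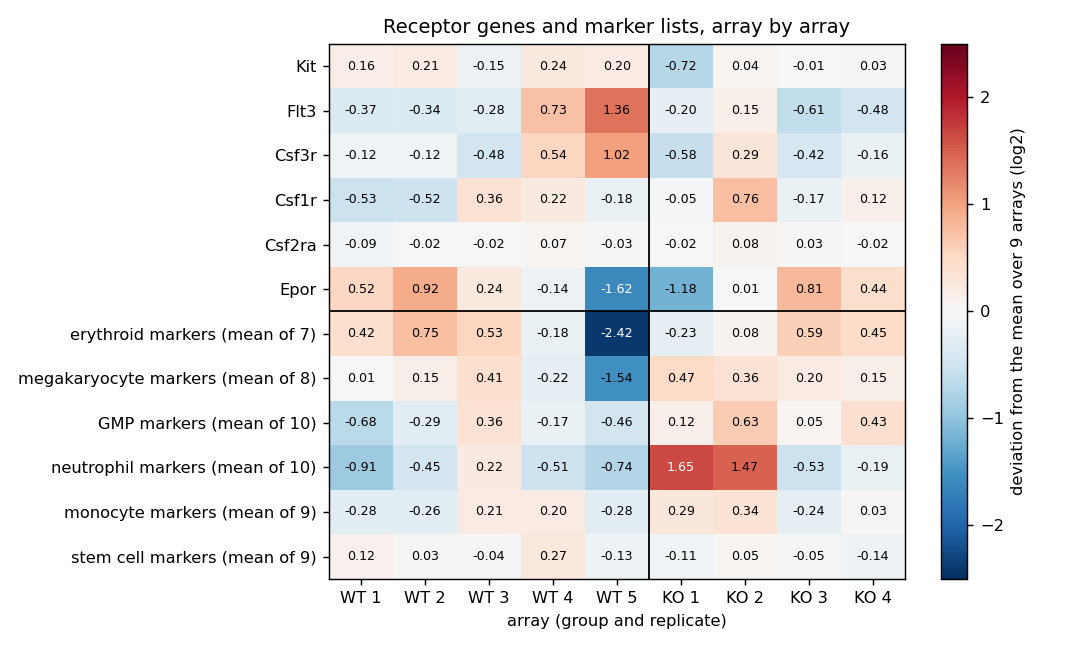
Deviation of each array from the mean over the 9 arrays (log2) for the 6 receptor genes (above the line) and for the means of marker lists (below it). The lists drawn are erythroid, megakaryocyte, granulocyte-monocyte progenitor (GMP), neutrophil, monocyte and stem cell markers, and the other marker lists are not drawn. Red is above and blue below the mean. WT replicate 5 is high for Flt3 and Csf3r and low for Epor, erythroid markers (-2.42) and megakaryocyte markers (-1.54).

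For each receptor, the 3 named genes above background with the highest Pearson r over the 9 arrays were listed as a description. Unnamed gene models, pseudogenes and RNA genes were skipped. The genes were picked as the highest of many over 9 arrays, so their r is high by selection. Flt3 was followed most closely by Lcp1, which encodes the leukocyte actin-bundling protein plastin (r = 0.984), the homeobox gene Hoxa6 (0.978) and the chromatin regulator gene Ankrd11 (0.976). Hoxa6 was 9.44 on the WT 5 array, 8.96 on WT 4 and 7.67 to 8.48 on the rest. Epor was followed by C1qtnf12 (0.988), the water channel gene Aqp1 (0.982) and Ifngr1, a chain of the interferon gamma receptor (0.981). Aqp1 was 5.83 in WT replicate 5, 8.21 in KO replicate 1 and 10.32 to 12.39 in the others. For Csf1r the genes were Pld4, a nuclease gene of myeloid and dendritic cells (0.966), the cathepsin gene Ctsh (0.956) and Tifab (0.924). Kit was followed by Ikbkb, a kinase gene of the NF-kappaB pathway (0.988), Gon4l (0.987) and Anxa9 (0.987), which share its low value in KO replicate 1. Anxa9 was 8.91 in that array and 10.07 to 10.69 in the others. The genes most like Csf3r were Tmem86b (0.971), Aff3 (0.969) and Amot (0.968), and those most like Csf2ra were Ssh3 (0.921), Cdk2ap2 (0.915) and Nrm (0.896).

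Genes that act with these receptors were counted by role. Over all named genes 64.2% had a higher mean in KO, and the counts of each list are to be read beside that share. Across 6 lists, 87 distinct genes were measured and 75 lay above background. Of the 87, 43 had higher means in KO, 0 passed the limma adjusted p of 0.05, and 6.9% had an unadjusted p under 0.05 (5 higher and 1 lower), beside 5.01% of all genes (3.82% higher and 1.19% lower). Among ligands 9 of 10 were measured, and 2 lay above background, Csf1 and Flt3l. Csf1, the ligand of CSF1R, was 7.06 to 7.27 in KO and 6.92 to 7.06 in WT, a difference of 0.18 (SE 0.054, limma adjusted p = 0.786). Flt3l was 8.17 in KO and 8.16 in WT (means). Kitl, which encodes stem cell factor and is made by niche cells, held 4.64 in all 9 arrays, below background. It was counted among the 43 genes with higher KO means, although its values did not differ. Flt3l and Kitl are given after their values were seen.

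Among related receptors, 10 of 15 were measured, 7 above background, with 7 higher KO means (median difference 0.055). The other 3 take in a gene that had the same value in every array, Osmr, and so no difference. The interleukin 3 receptor alpha chain gene Il3ra, which shares the beta chain with the GM-CSF receptor, differed by 0.23 (SE 0.11) and the interleukin 7 receptor gene Il7r by 0.34 (SE 0.12), each with a limma adjusted p of 0.786. Il5ra lay below background, with signals of 4.86 to 5.31. Csf2rb2 was not matched to a probeset. All 26 measured signal transducers of 33 listed lay above background, and 19 of the 26 had lower KO means (median difference -0.10). KO replicate 1 was 0.36 below the mean of this list, and the other arrays lay within -0.11 and 0.10 of it. Jak2, the kinase on which EPOR relies, was 9.79 in KO replicate 1 and 10.44 to 10.88 in the others, a difference of -0.20 (SE 0.21, limma adjusted p = 0.792). The smallest p-values of the list belonged to the RAS gene Nras, which differed by -0.13 (SE 0.060), and to the PI3 kinase subunit genes Pik3ca at -0.13 (SE 0.063) and Pik3r1 at -0.23 (SE 0.14), each with a limma adjusted p of 0.786.

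Of 18 inhibitors of the receptors, 14 had lower KO means, and the median difference of the list was -0.065. The unadjusted p was under 0.05 for Cish, a STAT5-induced brake on cytokine receptors, which differed by 0.57 (SE 0.19), and for the RAS inhibitor gene Rasa1, which differed by -0.12 (SE 0.046). Cish was 7.20 to 7.66 in KO and 6.40 to 7.24 in WT. STAT5 targets had higher means in 8 of 13 measured members, with a median difference of 0.10. Among them Myc differed by 0.20 (SE 0.076) and Id1 by 1.40 (SE 0.62). Transcription factors of receptor genes had higher means in 9 of 14 measured members, with a median difference of 0.083. The shares for STAT5 targets and transcription factors were near that of all named genes. Cebpe, a regulator of granulocyte maturation, had the smallest p of the transcription factors and differed by 0.53 (SE 0.15), followed by Lmo2 at -0.20 (SE 0.10) and Ikzf1 at -0.22 (SE 0.11). Gata2 differed by 0.26 (SE 0.25) and Cebpa by 0.24 (SE 0.20). Each gene named among the inhibitors, STAT5 targets and transcription factors had a limma adjusted p of 0.786.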

How the data were processed

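The deposited table holds 72688 probesets by 9 arrays and was used as log2 signals summarised by the authors. The log base is read from the range, 1.84 to 19.45, and the sources used here do not give the background correction or the normalization method. Partek 6.6 is named in the submitters' processing notes. Of the probesets, 6732 were controls and 30604 carried exactly 1 symbol. The probeset with the highest mean over the 9 arrays stood for each of 30142 genes, and 827 symbols were updated through Entrez identifiers to RefSeq. Replicates are separate mice, per the labels.

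KO and WT were compared over all named genes with limma 3.58.1 in R 4.3.3 (lmFit, eBayes without trend, Benjamini-Hochberg, threshold 0.05, no covariate), checked on simulated data. Single values were also tested by exact permutation over 126 splits, and pairs of genes by exact permutation of arrays. Tests are two-sided. Alternatives were quantile normalization, median centring, leaving out dim genes, a trended and robust fit, a replicate block and leaving out arrays. The 6 measured receptors are described, with the 3 most alike genes each and up to 3 genes per list by smallest p, and Abi1, Car1, Csf2rb2, Il3ra, Il5ra, Jak2, Gata1, Gata2 and Cebpa could be named whatever their values. Outside this rule, Flt3l, Kitl, Osmr, C1qa, Itgam, Ermap, Alas2, Slc4a1, Tfrc, Procr, Slamf1 and Vwf are named with their values known. Members and lists were chosen with earlier results of these data known.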

Additional observations from a re-analysis of the deposited data

Results flagged for a closer look

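In 2 of the 12 sets of arrays checked (6 receptor genes in 2 groups), 1 array lay far from the rest of its group, both times for Kit. The gap from KO replicate 1, at 13.82, to the next KO array took up nearly the whole range of the group. In WT, replicate 3 lay apart in the same direction, at 14.39. Chance marks about 5% of such sets. KO replicate 1 was also the array with the highest background, 5.61, whereas that of WT replicate 3 was 5.35.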

How the results depend on the processing

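Abi1 alone passed over all genes in the fits run, and 0 receptor genes and 0 list genes passed in any of them. The number of genes at an unadjusted p under 0.05 was 905 without WT replicates 4 and 5 and 1005 to 1924 with 1 array left out, against 1509 of 30142. With dim genes left out it was 962, but of only 16141 genes tested, so that count is not a fall in the share. Differences with 1 array left out ran from -0.37 to -0.11 for Kit, -0.65 to -0.22 for Flt3, -0.37 to 0.44 for Epor, 0.097 to 0.42 for Csf1r, 0.015 to 0.057 for Csf2ra and -0.55 to -0.17 for Csf3r. Kit and Csf1r kept their direction in every alternative. Epor changed sign with arrays centred (-0.011), without KO replicate 3 (-0.23), without KO replicate 4 (-0.10), without WT replicate 5 (-0.37) and without WT replicates 4 and 5 (-0.54). Csf2ra changed sign with arrays centred (-0.012), and Flt3 (0.045) and Csf3r (0.022) without WT replicates 4 and 5. The cause was not tested. Over all alternatives the limma adjusted p was 0.665 to 0.964 for Kit, 0.722 to 0.964 for Flt3, 0.791 to 1.0 for Epor, 0.665 to 0.964 for Csf1r, 0.740 to 0.982 for Csf2ra and 0.727 to 0.994 for Csf3r. The number of receptor pairs past the threshold, 1, was 0 to 3 with 1 array left out, 0 without KO replicate 1 and WT replicate 5, and 0 without the 2 arrays farthest from the median of the first gene. All 6 genes stayed above background under centring, quantile normalization and each left-out array. Deviations of same-numbered arrays correlated at -0.18, 0.15, -0.014 and 0.27, and those of unlike-numbered arrays at -0.366 to 0.345. The spans overlap, so these values cannot decide whether the replicate numbers pair the mice. With replicate number as a block, which leaves out WT replicate 5, 1 gene passed and Epor was at -0.37. Every receptor has 1 probeset, so no other probeset could be tried. Pair counts under left-out arrays and the omission of WT replicates 4 and 5 were chosen after seeing the data.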

Other observations

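Among stem cell markers, the transcription factor gene Hlf was 9.80 to 10.64 in KO and 10.63 to 11.62 in WT, a difference of -0.65 (SE 0.26, limma adjusted p = 0.786). Its highest arrays were WT replicate 5 at 11.62 and WT replicate 4 at 10.96, which were also the highest for Flt3. The other markers of the list differed among themselves in WT replicate 5. Mecom, at 7.92, Fgd5, at 7.53, and Procr, at 7.13, had their highest signals there, as did Hlf. Slamf1, at 8.63, and Vwf, at 5.83, had their lowest signals there. The mean deviation of the list was -0.13 in WT replicate 5 and 0.27 in WT replicate 4. Over the 11 marker lists, 96 distinct genes were measured and 80 had higher means in KO. Of these 96 genes, 0 passed in limma and 19.8% had an unadjusted p under 0.05 (18 higher and 1 lower). Over all named genes, 64.2% had a higher mean in KO, and 5.01% had an unadjusted p under 0.05 (3.82% higher and 1.19% lower).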
